A study of Mus musculus with 40 samples.

Results

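Small leucine-rich proteoglycans (Lum, Dcn, Bgn, Ogn, Prelp), microfibril and fibulin genes (Fbn1, Fbln1, Efemp1) and thrombospondins (Thbs1, Thbs2) were followed across the 8 groups of a mouse study of alcoholic hepatitis laid over chronic fibrosis. These 10 genes were taken by symbol from the gene names of the count files, where all 10 were found among 24499 genes, and all 10 passed the low-count filter that kept 14355 genes for testing. Each of the 40 libraries was made from the liver of an adult male C57BL/6 mouse, with no genetic change, and messenger RNA was sequenced. Library depth, as reads on genes, lay between 7197939 and 26398061 (median 13653548).

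Groups were named by their labels. Without a second treatment there were DDC 0D (n = 4), fed a diet with 0.05% by weight of DDC, and Control 0D (n = 4), fed a diet marked BD. DDC is 3,5-diethoxycarbonyl-1,4-dihydrocolidine, a porphyrin-forming compound that injures bile ducts and brings on liver fibrosis. After DDC, mice were given HFD with ethanol (DDC+EtOH, n = 6), HFD (DDC+HFD, n = 6) or BD (DDC+Cont, n = 5) as the second treatment. After BD, they were given HFD with ethanol (EtOH, n = 4), HFD (HFD, n = 6) or BD (Control 28D, n = 5). Ethanol ran through a tube into the stomach at up to 27 g/kg/day for up to 28 days. The labels spell out neither BD nor HFD, give no length of DDC feeding, and do not say whether groups without ethanol carried the tube. Each label carries its own number, so libraries are taken as separate animals, although no label states this, and p-values measure the spread between these libraries. The summed level of 6 hepatocyte marker genes lay between 41859 and 95292 CPM in every library, as liver should show. The level of 8 digestive-enzyme genes of the pancreas was above 1000 CPM in 7 libraries: HFD replicate 14, DDC+Cont replicate 24, DDC+HFD replicates 30, 33 and 36, and DDC+EtOH replicates 38 and 41. CPM here means counts scaled to a common library total with TMM factors.

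Small leucine-rich proteoglycans are secreted proteins built of curved leucine-rich repeats, most of them carrying sugar chains, that sit on collagen fibrils and set their width and spacing. Fibrillin forms the beaded microfibrils on which elastic fibres are built and on which latent growth factors are stored, while fibulins bridge microfibrils, elastin and basement membranes. Thrombospondins are matrix proteins that carry signals rather than loads, and in liver fibrosis all of these are known as products of stellate cells and portal fibroblasts.

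In GENCODE vM21 (GRCm38/mm10) all 10 are protein-coding genes. Dcn (chromosome 10, 97479609 to 97518143, plus strand) and Lum (chromosome 10, 97565128 to 97572703, plus strand) lie next to each other. Ogn lies on chromosome 13 (49608046 to 49624501, plus strand), Prelp on chromosome 1 (133910304 to 133921414, minus strand) and Bgn on chromosome X (73483602 to 73495933, plus strand). Fbn1 (125300594 to 125507993, minus strand) and Thbs1 (118111876 to 118127133, plus strand) are both on chromosome 2. Fbln1 is on chromosome 15 (85205949 to 85286535, plus strand), Efemp1 on chromosome 11 (28853204 to 28926743, plus strand) and Thbs2 on chromosome 17 (14665500 to 14694235, minus strand). Exons of Fbn1 share 2442 bases with Gm9913, those of Prelp 350 bases with Gm15851 and those of Thbs1 208 bases with Gm29233, each on the opposite strand. Whether counting used strand is not stated in the labels or notes used here, so reads of these overlaps cannot be assigned to 1 gene with certainty.

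RefSeq promoter entries (GRCm38.p6) were at hand for 7 of the 10 genes; Lum, Dcn and Thbs1 were not among them. The 250 bases before the start site are printed for 4 genes, because their levels behaved differently: Thbs2 kept the largest fold change after DDC and BD, Bgn and Prelp peaked in the same livers, and Ogn passed no test. Capitals mark matches, on either strand, to 5 short motifs. The AP-1 motif was searched as TGANTCA and the GC box as GGGCGG. The TATA box was searched as TATAAA, the CCAAT box by its own letters, and the TEAD motif as GGAATG. Coordinates are chr17:14694263-14694512 (minus strand) for Thbs2, chrX:73483351-73483600 (plus) for Bgn, chr1:133921402-133921651 (minus) for Prelp and chr13:49607765-49608014 (plus) for Ogn.
Thbs2: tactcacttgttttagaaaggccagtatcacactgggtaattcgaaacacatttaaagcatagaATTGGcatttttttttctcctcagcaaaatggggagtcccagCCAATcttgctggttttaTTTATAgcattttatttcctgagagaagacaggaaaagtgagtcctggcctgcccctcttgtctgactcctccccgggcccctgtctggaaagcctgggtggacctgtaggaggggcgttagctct
Bgn: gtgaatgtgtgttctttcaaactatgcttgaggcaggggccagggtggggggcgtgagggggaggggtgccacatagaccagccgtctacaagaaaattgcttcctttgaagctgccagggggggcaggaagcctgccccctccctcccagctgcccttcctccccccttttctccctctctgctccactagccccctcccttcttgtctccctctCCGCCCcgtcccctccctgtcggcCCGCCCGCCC
Prelp: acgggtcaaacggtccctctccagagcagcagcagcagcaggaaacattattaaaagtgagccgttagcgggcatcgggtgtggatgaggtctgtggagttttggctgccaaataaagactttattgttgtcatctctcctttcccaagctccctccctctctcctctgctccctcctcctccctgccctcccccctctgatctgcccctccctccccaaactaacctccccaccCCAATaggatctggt
Ogn: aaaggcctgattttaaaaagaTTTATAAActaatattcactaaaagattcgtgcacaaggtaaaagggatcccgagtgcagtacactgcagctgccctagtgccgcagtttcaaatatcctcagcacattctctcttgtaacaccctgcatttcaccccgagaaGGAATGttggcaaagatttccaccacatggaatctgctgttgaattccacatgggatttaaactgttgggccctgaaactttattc

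The Thbs2 window held 1 TATA box and 2 CCAAT boxes, and the Bgn window 3 GC boxes, of which 2 overlap, in a sequence of 64.4% G and C against a median of 52.4% over all windows. The Prelp window held 1 CCAAT box, and the Ogn window 2 overlapping TATA boxes far from the start and 1 TEAD motif. Of the genes not printed, Efemp1 held the only AP-1 motif among the members' windows, along with 1 GC box, Fbn1 held 1 GC box, and 1 of the 2 Fbln1 windows held 1 GC box. Over all 32851 windows of this length, 6.75% held the AP-1 motif, 32.7% the GC box, 12.4% the TATA box, 33.8% the CCAAT box and 12.6% the TEAD motif. These matches describe letters only, and no match says nothing about the factor.

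Per length of exon, Dcn led the 10 genes in every group. Dcn stood at 67.0 CPM per kb in DDC 0D and 30.7 CPM per kb in Control 0D. Lum was second in DDC 0D at 32.9 CPM per kb but stood at 3.89 CPM per kb in Control 0D, below Bgn, Prelp and Efemp1. Bgn had 20.3 CPM per kb in DDC 0D and 6.91 CPM per kb in Control 0D. Fbn1 had 7.05 and 1.07 CPM per kb in the same groups. Fbln1 was lowest in both, at 0.901 CPM per kb in DDC 0D and 0.204 CPM per kb in Control 0D. Ogn, at 1.32 CPM per kb in DDC 0D and 1.27 CPM per kb in Control 0D, was above Fbn1 and both thrombospondins in Control 0D and below them in DDC 0D. Depth limits Fbln1 and Ogn: Fbln1 was counted on 3 to 92 reads per library and Ogn on 11 to 97, against 1685 to 9597 for Dcn.

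**Figure D1:**
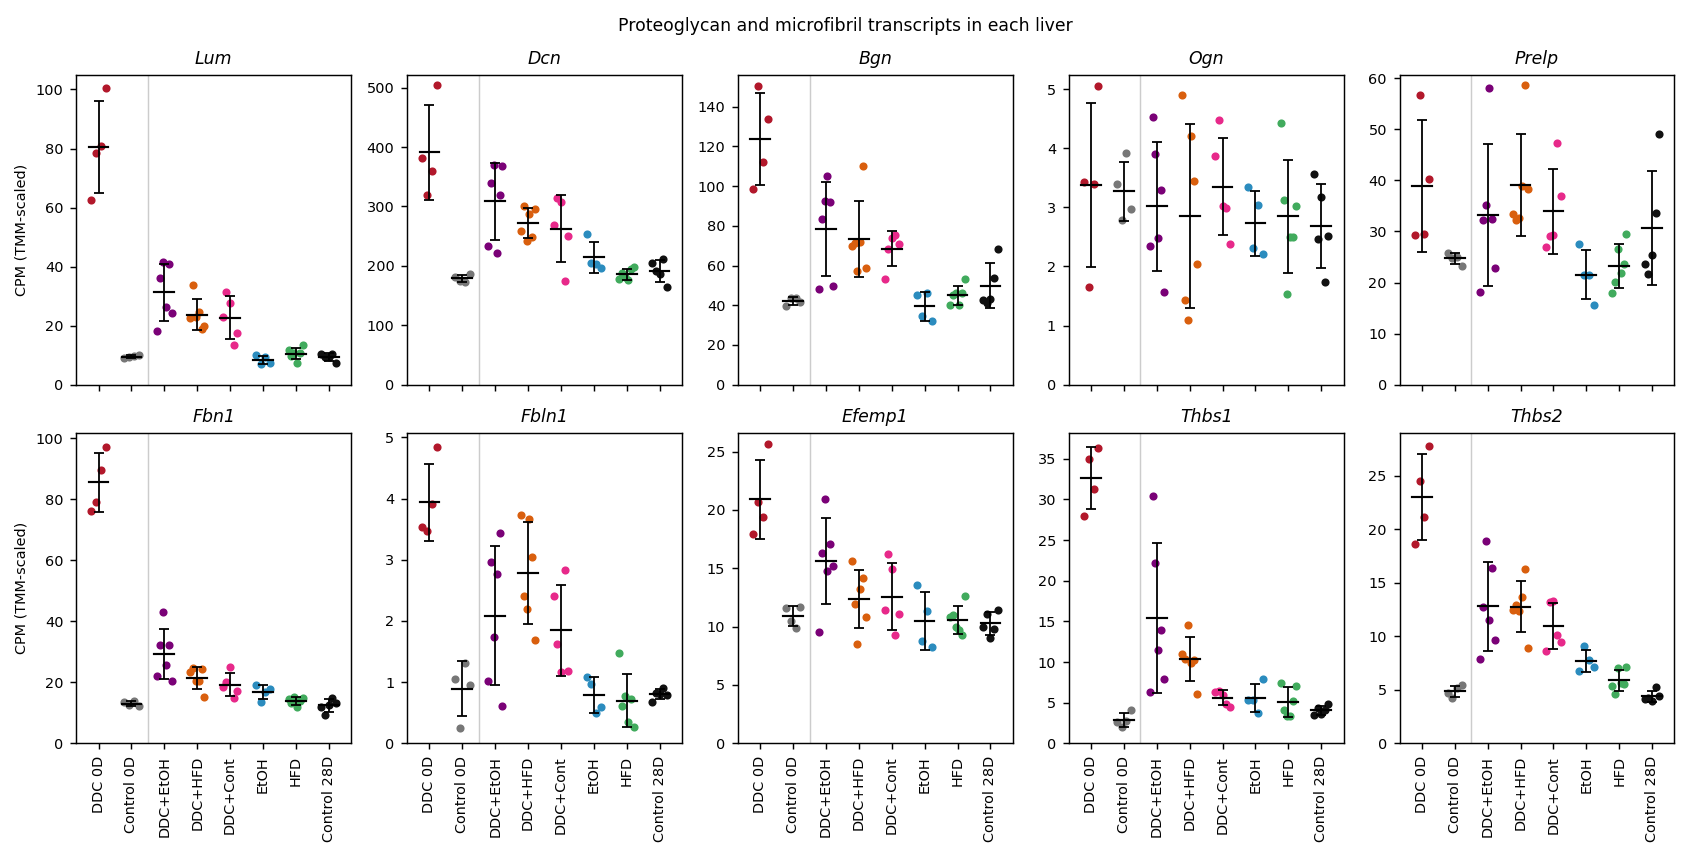
Level of each gene in every liver, in TMM-scaled CPM on a linear axis from 0, by group; points are livers, the long bar is the group mean and whiskers are ± SD (n = 4 to 6), and the grey line parts groups without a second treatment from those with one. DDC 0D livers stand above all Control 0D livers for 9 genes, as for Lum (62.4 to 100.4 CPM against 8.98 to 10.2 CPM), while Ogn shows no such gap.

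DDC feeding alone raised 9 of the 10 genes, and the proteoglycans spread widely, with Lum moving most and Ogn not at all. The comparison of DDC 0D with Control 0D answers what the injury diet does to these transcripts before any second treatment. Lum, a keratan sulfate proteoglycan of fibrillar collagen, was counted at 62.4, 78.5, 80.7 and 100.4 CPM in DDC 0D livers, against 8.98, 9.21, 9.71 and 10.2 CPM in Control 0D livers. The groups were far apart, and the Control 0D livers hardly differed among themselves (log2 fold change 3.08 ± 0.24, adjusted p = 5.87e-13). Dcn, decorin, a fibril-spacing proteoglycan that also binds TGF-beta, stood at 319, 359, 382 and 505 CPM in DDC 0D livers, against 173, 175, 182 and 186 CPM in Control 0D livers. Each DDC 0D liver was above each Control 0D liver, with replicate 8 well ahead of the rest (1.13 ± 0.15, adjusted p = 5.79e-08). Bgn, biglycan, its closest relative and a ligand of toll-like receptors when soluble, had 98.3, 112, 134 and 150.3 CPM in DDC 0D livers, against 39.7, 41.5, 43.6 and 43.8 CPM in Control 0D livers. These groups did not overlap either (1.55 ± 0.21, adjusted p = 7.02e-08).

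The other pair of proteoglycans behaved less clearly. Prelp, which anchors basement membranes to collagen through heparan sulfate, had 29.4, 29.5, 40.2 and 56.8 CPM in DDC 0D livers, against 23.3, 24.8, 25.0 and 25.8 CPM in Control 0D livers. All DDC 0D livers were above all Control 0D livers, but replicates 5 and 7 only just, and replicate 6 supplied much of the mean (0.66 ± 0.27, adjusted p = 0.0408). Without DDC 0D replicate 6 the value was 0.43 with adjusted p = 0.212, and over the 16 alternatives adjusted p ran from 0.0125 to 0.212. The call was also lost without DDC 0D replicate 8 (0.65, adjusted p = 0.0675), without each Control 0D replicate in turn (0.64 to 0.69, adjusted p 0.0577, 0.0694, 0.0657 and 0.0807 for replicates 1 to 4) and with no low-count filter (adjusted p = 0.0842). Ogn, osteoglycin or mimecan, had 1.66, 3.39, 3.43 and 5.05 CPM in DDC 0D livers, against 2.78, 2.98, 3.40 and 3.92 CPM in Control 0D livers. The groups overlapped fully, and both the lowest and the highest liver were DDC-fed (0.07 ± 0.34, adjusted p = 0.889).

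Microfibril and thrombospondin transcripts were higher in DDC 0D livers without exception. Fbn1, fibrillin, the backbone of the microfibril, had 76.1, 79.2, 89.5 and 97.2 CPM in DDC 0D livers, against 12.1, 12.5, 13.5 and 13.9 CPM in Control 0D livers. No other of the 10 genes had a smaller p in this comparison (2.72 ± 0.18, adjusted p = 5.95e-15). Fbln1, a fibulin of elastic fibres and basement membranes, had 3.47, 3.54, 3.91 and 4.84 CPM in DDC 0D livers, against 0.257, 0.958, 1.05 and 1.31 CPM in Control 0D livers. The groups were apart, on few reads (2.16 ± 0.41, adjusted p = 2.69e-05). Efemp1, a fibulin that binds tissue inhibitors of metalloproteases, moved less, at 17.9, 19.4, 20.7 and 25.7 CPM in DDC 0D livers, against 9.88, 10.5, 11.6 and 11.7 CPM in Control 0D livers (0.94 ± 0.18, adjusted p = 3.48e-05).

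The steepest change belonged to Thbs1, an activator of latent TGF-beta that is also stored in platelets. It had 27.9, 31.3, 35.0 and 36.3 CPM in DDC 0D livers, against 2.01, 2.59, 2.73 and 4.10 CPM in Control 0D livers (3.51 ± 0.35, adjusted p = 2.99e-10). Thbs2, a regulator of collagen fibril assembly and of protease clearance, had 18.6, 21.2, 24.5 and 27.8 CPM in DDC 0D livers, against 4.27, 4.69, 5.17 and 5.43 CPM in Control 0D livers (2.24 ± 0.20, adjusted p = 1.09e-11). For both genes the lowest DDC 0D liver was several-fold above the highest Control 0D liver.

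Of the 10 genes, 9 passed the test with higher values in DDC 0D and 0 with lower, while 27.5% of all tested genes passed with higher values and 52.0% in either direction. The median log2 fold change was 1.86 for the 10 genes and 0.01 for all tested genes. Groups did not overlap, with DDC 0D higher, for 9 of the 10, and for 26.0% of all genes. In the 2 sequencing lanes that held both groups, with 1 liver of each, the log2 ratios of these 9 genes ran from 0.64 to 4.12. Their direction was fixed in advance, because the groups did not overlap. In bulk liver, more cells of a type and more RNA per cell cannot be told apart. Stellate cell markers moved too: 6 of 9 rose and 0 fell, and their summed level was 551 to 650 CPM in DDC 0D and 339 to 378 CPM in Control 0D. Of 7 myofibroblast markers 6 rose, with sums of 121 to 153 CPM in DDC 0D and 38.4 to 54.6 CPM in Control 0D. Of 5 tested portal fibroblast markers 4 rose, with sums over the list of 43.1 to 53.4 CPM in DDC 0D and 8.44 to 11.0 CPM in Control 0D. Platelet markers, which bear on Thbs1, summed to 7.99 to 10.1 CPM in DDC 0D and 4.37 to 6.44 CPM in Control 0D, with only Pf4 of 4 tested genes called. The hepatocyte sum was 42594 to 55564 CPM in DDC 0D and 72846 to 79510 CPM in Control 0D, and all 6 of its genes fell. Bile duct markers (6 of 6 higher) summed to 896 to 1035 CPM in DDC 0D and 38.3 to 47.6 CPM in Control 0D, and recruited macrophage markers (6 of 6 higher) to 1020.5 to 1200.4 CPM in DDC 0D and 36.3 to 44.1 CPM in Control 0D. Spp1 stands in both of these lists. The part of these cell types in the results was not tested.

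**Figure D2:**
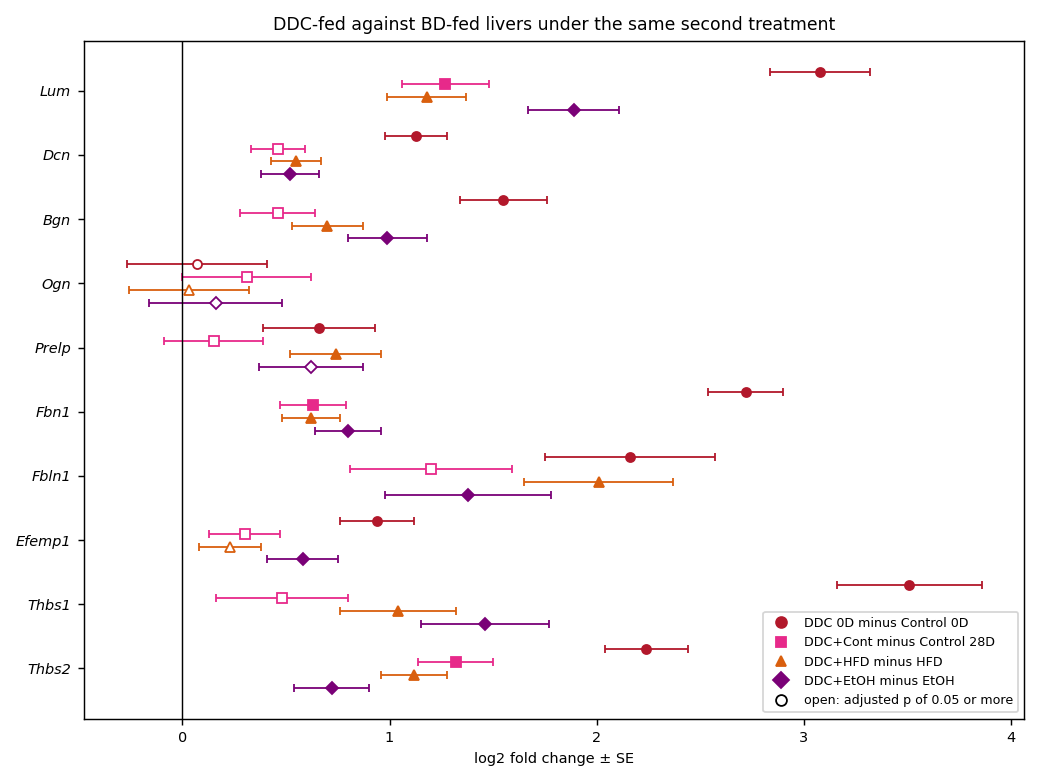
Log2 fold change ± SE of each gene for 4 comparisons of DDC-fed with BD-fed livers under the same second treatment (circle none, square BD, triangle HFD, diamond HFD with ethanol); filled symbols have an adjusted p under 0.05. Without a second treatment the values reach 3.51 (Thbs1), and later ones lie mostly between 0 and 2, with Ogn open throughout.

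After DDC and a second period on BD, 3 of the 10 genes were still higher than in livers never given DDC, against 1.23% of all tested genes. The comparison of DDC+Cont with Control 28D answers what is left of the DDC change. Thbs2 had 8.67, 9.51, 10.1, 13.2 and 13.3 CPM in DDC+Cont livers, against 3.99, 4.18, 4.22, 4.38 and 5.29 CPM in Control 28D livers. The groups were well apart (1.32 ± 0.18, adjusted p = 3e-05). Lum had 13.4, 17.6, 22.9, 27.7 and 31.4 CPM in DDC+Cont livers, against 7.32, 9.36, 9.43, 10.5 and 10.5 CPM in Control 28D livers. All DDC+Cont livers were above all Control 28D livers, across a wide range of their own (1.27 ± 0.21, adjusted p = 0.000328). Fbn1 had 15.0, 17.2, 18.5, 20.2 and 25.1 CPM in DDC+Cont livers, against 9.25, 12.0, 12.6, 13.2 and 14.9 CPM in Control 28D livers. The lowest DDC+Cont liver only just cleared the highest Control 28D liver (0.63 ± 0.16, adjusted p = 0.024).

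The Fbn1 call depended on single livers and on the model. It was lost without Control 28D replicates 9 (0.62, adjusted p = 0.0652), 10 (0.55, 0.103) or 11 (0.64, 0.0606) and without DDC+Cont replicates 25 (0.61, 0.0659) or 26 (0.52, 0.139). It was also lost with lane as a term (0.59, adjusted p = 0.0625) and when the fit held these groups alone (0.65, adjusted p = 0.062), and over 18 alternatives adjusted p ran from 0.00933 to 0.139. Dcn stood on the other side of the threshold, with 174, 251, 268, 307 and 314 CPM in DDC+Cont livers, against 165, 186, 191, 204 and 211 CPM in Control 28D livers. Replicate 28 alone overlapped the Control 28D livers (0.46 ± 0.13, adjusted p = 0.0711), and without it the value was 0.57 with adjusted p = 0.00716. DESeq2 called Dcn with adjusted p = 0.0391, and over 18 alternatives adjusted p ran from 0.00716 to 0.231.

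Fbln1 had 1.17, 1.19, 1.62, 2.40 and 2.84 CPM in DDC+Cont livers, against 0.677, 0.79, 0.81, 0.823 and 0.911 CPM in Control 28D livers. These groups did not overlap, but the test over all genes was not passed (1.2 ± 0.39, adjusted p = 0.135). Bgn (0.46 ± 0.18, adjusted p = 0.262), Thbs1 (0.48 ± 0.32, adjusted p = 0.625), Efemp1 (0.30 ± 0.17, adjusted p = 0.511), Ogn (0.31 ± 0.31, adjusted p = 0.79) and Prelp (0.15 ± 0.24, adjusted p = 0.899) did not pass either. Groups did not overlap, with DDC+Cont higher, for 4 of the 10 genes and 2.35% of all genes. Within each of the 4 shared lanes the 3 called genes were higher in DDC+Cont, with log2 ratios from 0.22 to 1.74. This direction was fixed in advance, because the groups did not overlap for these 3 genes. Of the portal fibroblast markers 2 of 5 tested rose, Cd34 and Dpt, with sums of 18.5 to 36.0 CPM in DDC+Cont and 7.68 to 12.2 CPM in Control 28D, and of the stellate markers 2 of 9 rose, with sums of 345 to 396 CPM and 311 to 335 CPM in the same groups. Of 7 myofibroblast markers 1 rose, Pdgfra. The 7 summed to 42.6 to 65.5 CPM in DDC+Cont and 37.3 to 48.0 CPM in Control 28D. Recruited macrophage markers (4 of 6 higher) summed to 91.9 to 169 CPM in DDC+Cont and 49.7 to 76.1 CPM in Control 28D. Bile duct markers (2 of 6 higher) summed to 80.9 to 129 CPM in DDC+Cont and 49.5 to 73.9 CPM in Control 28D. The part of these cell types was not tested.

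Set against DDC 0D itself, DDC+Cont livers had lower values of 8 of the 10 genes, against 23.2% of all tested genes. Fbn1 fell most surely, by 2.15 ± 0.16 on the log2 scale (adjusted p = 3.38e-13), with 15.0 to 25.1 CPM in DDC+Cont and 76.1 to 97.2 CPM in DDC 0D. Thbs1 fell by 2.53 ± 0.31 (adjusted p = 3.5e-08), to 4.48 to 6.46 CPM in DDC+Cont against 27.9 to 36.3 CPM in DDC 0D. Lum fell by 1.83 ± 0.21 (adjusted p = 6.39e-09). Fbln1 (log2 fold change −1.11 ± 0.36), Thbs2 (−1.07 ± 0.18), Bgn (−0.86 ± 0.19), Efemp1 (−0.73 ± 0.17) and Dcn (−0.57 ± 0.14) fell less, with adjusted p from 6.46e-06 to 0.0118. For all 8 genes every DDC+Cont liver was below every DDC 0D liver, which held for 18.6% of all genes. The same direction in each of 3 shared lanes follows from this and adds no support. Ogn (−0.02 ± 0.33, adjusted p = 0.975) and Prelp (−0.20 ± 0.26, adjusted p = 0.555) did not pass, and their groups overlapped. The count was 8 under every alternative run. Stellate markers fell for 7 of 9 genes (sums of 345 to 396 CPM in DDC+Cont and 551 to 650 CPM in DDC 0D), and myofibroblast markers for 7 of 7 (42.6 to 65.5 CPM in DDC+Cont and 121 to 153 CPM in DDC 0D). Portal fibroblast markers fell for 2 of 5 tested (18.5 to 36.0 CPM in DDC+Cont and 43.1 to 53.4 CPM in DDC 0D). Bile duct markers fell for 5 of 6 (80.9 to 129 CPM in DDC+Cont and 896 to 1035 CPM in DDC 0D) and recruited macrophage markers for 6 of 6 (91.9 to 169 CPM in DDC+Cont and 1020.5 to 1200.4 CPM in DDC 0D). Hepatocyte markers rose for 4 of 6 (44997 to 85316 CPM in DDC+Cont and 42594 to 55564 CPM in DDC 0D), and the part of all these was not tested.

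The difference between the later and the earlier DDC effect was itself called for 7 genes, all with a smaller effect after the second period, against 17.6% of all tested genes. It was −3.03 ± 0.47 on the log2 scale for Thbs1, −2.09 ± 0.23 for Fbn1, −1.81 ± 0.30 for Lum, −1.10 ± 0.27 for Bgn, −0.92 ± 0.27 for Thbs2 and −0.67 ± 0.20 for Dcn, with adjusted p from 1.44e-08 to 0.00855. The Efemp1 difference, −0.64 ± 0.24, passed at adjusted p = 0.04 and was lost in 10 of 26 alternatives, 9 of which left out 1 liver. Without DDC+Cont replicates 24, 28 and 29 it was −0.61, −0.55 and −0.61, and without Control 28D replicates 10 and 13 it was −0.62 and −0.60. Without DDC 0D replicates 6 and 8 it was −0.65 and −0.52, and without Control 0D replicates 2 and 3 it was −0.63 and −0.60. Over the 26 alternatives adjusted p ran from 0.0158 to 0.116. The difference of Fbln1 was −0.96 ± 0.57 (adjusted p = 0.201), that of Prelp −0.51 ± 0.36 (adjusted p = 0.297) and that of Ogn 0.24 ± 0.46 (adjusted p = 0.731). These comparisons share the DDC 0D livers with the earlier ones. Control 28D against Control 0D called 0 of the 10 genes in edgeR and in DESeq2, while 2.46% of all genes were called in either direction. At an unadjusted p under 0.05 there were 0 of the 10 and 15.8% of all genes. All 10 genes overlapped between these control groups, while 5.11% of all genes lay higher and 4.63% lower without overlap, the widest member value being that of Thbs1 (0.50 ± 0.35, adjusted p = 0.539).

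When HFD followed, earlier DDC left 8 of the 10 genes higher (DDC+HFD against HFD), against 7.96% of all tested genes. Thbs2 had 8.94 to 16.3 CPM (median 12.7) in DDC+HFD livers, against 4.57 to 7.11 CPM (median 5.61) in HFD livers, with no overlap (1.12 ± 0.16, adjusted p = 1.6e-05). Lum had 18.8 to 33.6 CPM (median 22.7) in DDC+HFD livers, against 7.49 to 13.4 CPM (median 10.6) in HFD livers, again with no overlap (1.18 ± 0.19, adjusted p = 5.79e-05). Fbln1 had 1.69 to 3.74 CPM (median 2.72) in DDC+HFD livers, against 0.267 to 1.47 CPM (median 0.671) in HFD livers. This was the widest of the 10 differences and one without overlap, on 22 to 58 reads in DDC+HFD and 3 to 16 reads in HFD (2.01 ± 0.36, adjusted p = 0.000221).

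Dcn had 242 to 300 CPM (median 273) in DDC+HFD livers, against 176 to 198 CPM (median 185) in HFD livers (0.55 ± 0.12, adjusted p = 0.00225). Bgn had 57.1 to 110.2 CPM (median 70.7) in DDC+HFD livers, against 40.1 to 53.1 CPM (median 45.6) in HFD livers (0.70 ± 0.17, adjusted p = 0.00474). Neither pair of groups overlapped. Fbn1 (0.62 ± 0.14, adjusted p = 0.00296) and Thbs1 (1.04 ± 0.28, adjusted p = 0.0111) rose too, with 1 DDC+HFD liver inside the HFD range, replicate 37 at 15.1 CPM of Fbn1 and 6.02 CPM of Thbs1. Prelp had 32.2 to 58.6 CPM (median 35.9) in DDC+HFD livers, against 17.9 to 29.6 CPM (median 22.7) in HFD livers, with no overlap (0.74 ± 0.22, adjusted p = 0.0235).

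The Prelp call was lost without HFD replicates 14 (0.68, adjusted p = 0.0513), 15 (0.70, 0.0607) or 17 (0.72, 0.0507), without DDC+HFD replicate 36 (0.60, 0.0717), with lane as a term (0.53, 0.0623) and without the 7 pancreas-bearing libraries (0.59, 0.0851). Its adjusted p ran from 0.00836 to 0.0851 over 20 alternatives. Ogn (0.03 ± 0.29, adjusted p = 0.964) and Efemp1 (0.23 ± 0.15, adjusted p = 0.328) did not pass. In all, 6 genes had DDC+HFD above HFD without overlap, as did 2.60% of all genes. The 8 called genes kept their direction in each of 4 shared lanes (log2 ratios 0.12 to 3.41). For the 6 without overlap this direction was fixed in advance. The portal fibroblast sum was 17.1 to 33.8 CPM in DDC+HFD and 8.35 to 15.0 CPM in HFD, with 5 of 5 tested genes higher, and the stellate sum 368 to 453 CPM in DDC+HFD and 303 to 348 CPM in HFD, with 5 of 9 higher. Of 7 myofibroblast markers 1 was higher, Pdgfra, and 1 lower, Postn. The 7 summed to 51.5 to 77.1 CPM in DDC+HFD and 36.3 to 49.2 CPM in HFD. Recruited macrophage markers (6 of 6 higher) summed to 147 to 253 CPM in DDC+HFD and 52.4 to 96.7 CPM in HFD. Bile duct markers (4 of 6 higher) summed to 122 to 214 CPM in DDC+HFD and 48.1 to 88.1 CPM in HFD. Their part was not tested.

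Under HFD with ethanol, earlier DDC again went with higher values of 8 genes (DDC+EtOH against EtOH), against 4.12% of all tested genes. Lum had 18.3 to 41.4 CPM (median 31.4) in DDC+EtOH livers, against 7.14, 7.45, 9.29 and 9.97 CPM in EtOH livers. No liver overlapped (1.89 ± 0.22, adjusted p = 1.04e-06). Bgn had 48.3 to 105 CPM (median 87.6) in DDC+EtOH livers, against 32.2, 34.4, 45.3 and 46.4 CPM in EtOH livers (0.99 ± 0.19, adjusted p = 0.00112). Fbn1 had 20.5 to 42.9 CPM (median 28.9) in DDC+EtOH livers, against 13.6, 16.8, 17.7 and 19.1 CPM in EtOH livers (0.80 ± 0.16, adjusted p = 0.00127). In both the groups came close but did not overlap.

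Thbs1 had 6.29 to 30.4 CPM (median 12.7) in DDC+EtOH livers, against 3.70, 5.29, 5.30 and 7.96 CPM in EtOH livers. The groups overlapped, through DDC+EtOH replicate 38 at 6.29 CPM (1.46 ± 0.31, adjusted p = 0.00293). Thbs2 had 7.84 to 18.9 CPM (median 12.1) in DDC+EtOH livers, against 6.78, 7.15, 7.81 and 9.09 CPM in EtOH livers, and overlapped as well (0.72 ± 0.18, adjusted p = 0.0112). Dcn (0.52 ± 0.14, adjusted p = 0.0146), Fbln1 (1.38 ± 0.40, adjusted p = 0.0294) and Efemp1 (0.58 ± 0.17, adjusted p = 0.031) passed with overlapping groups. Prelp (0.62 ± 0.25, adjusted p = 0.13) and Ogn (0.16 ± 0.32, adjusted p = 0.806) did not.

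With only DDC+EtOH and EtOH in the fit the count was 1, Lum (1.91 ± 0.24, adjusted p = 0.00549), and adjusted p was 0.0603 for Bgn, 0.116 for Dcn, 0.0575 for Fbn1, 0.145 for Thbs1, 0.123 for Thbs2, 0.16 for Fbln1 and 0.172 for Efemp1. Leaving out EtOH replicate 22 or 23 gave 5 genes, with Dcn (adjusted p = 0.0549 and 0.0593), Fbln1 (0.109 and 0.0943) and Efemp1 (0.0528 and 0.125) lost. Fbln1 and Efemp1 were also lost without EtOH replicate 21 (0.0548 and 0.116) or DDC+EtOH replicate 39 (0.0751 and 0.0582), Fbln1 without DDC+EtOH replicate 41 (0.0578) or 42 (0.0646), and Efemp1 without replicate 40 (0.0978). Fbln1 was at adjusted p = 0.05 with lane as a term. Prelp passed without DDC+EtOH replicate 38 (0.75, adjusted p = 0.0447). Over the 18 alternatives adjusted p ran from 0.000758 to 0.116 for Dcn, from 0.00863 to 0.16 for Fbln1, from 0.00257 to 0.172 for Efemp1 and from 0.0447 to 0.355 for Prelp. It ran from 1.93e-05 to 0.0603 for Bgn, from 6.53e-05 to 0.0575 for Fbn1, from 0.000104 to 0.145 for Thbs1 and from 0.00129 to 0.123 for Thbs2. Groups did not overlap, with DDC+EtOH higher, for 3 genes and for 3.29% of all genes. The portal fibroblast sum was 18.0 to 41.3 CPM in DDC+EtOH and 10.1 to 13.2 CPM in EtOH, with 3 of 5 tested genes higher, and the stellate sum 379 to 472 CPM in DDC+EtOH and 364 to 422 CPM in EtOH, with 2 of 9 higher. Of 7 myofibroblast markers 1 was higher, Pdgfra. The 7 summed to 58.4 to 103 CPM in DDC+EtOH and 43.4 to 50.6 CPM in EtOH. Recruited macrophage markers (5 of 6 higher) summed to 114 to 319.6 CPM in DDC+EtOH and 54.1 to 79.1 CPM in EtOH. Bile duct markers (3 of 6 higher) summed to 86.6 to 209.7 CPM in DDC+EtOH and 49.9 to 62.0 CPM in EtOH. The part of these markers was not tested. In 3 shared lanes, 7 of the 8 genes kept their direction, which for the 3 genes without overlap was fixed in advance. The exception was Thbs1, whose log2 ratio in lane 5 was 0.00. That lane held 1 liver of each group (7.97 CPM in DDC+EtOH and 7.96 CPM in EtOH). Fbln1 was near level in the same lane, at 0.04 (0.607 CPM in DDC+EtOH and 0.59 CPM in EtOH). Log2 ratios of the 8 genes ran from 0.00 to 2.25 over the 3 lanes.

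HFD and ethanol without earlier DDC moved few of the genes. These comparisons share groups with one another and with those above, so they are not independent. HFD against Control 28D called 0 of the 10 in edgeR and in DESeq2, against 0.376% of all genes called in either direction. Thbs2 alone had an unadjusted p under 0.05 (0.41 ± 0.18, adjusted p = 0.464), as had 9.14% of all genes. EtOH against HFD called 0 of the 10 in edgeR and in DESeq2, against 13.5% of all genes. Thbs2 again alone had an unadjusted p under 0.05 (0.40 ± 0.18, adjusted p = 0.151), as had 26.7% of all genes. All 10 genes overlapped between the groups in both comparisons. Of all genes, 1.04% lay higher and 1.0% lower without overlap in HFD, and 8.99% higher and 6.79% lower in EtOH. For HFD with ethanol against Control 28D, Thbs2 was called: it had 6.78, 7.15, 7.81 and 9.09 CPM in EtOH livers, against 3.99, 4.18, 4.22, 4.38 and 5.29 CPM in Control 28D livers. The groups did not overlap, with the EtOH livers all higher (0.81 ± 0.20, adjusted p = 0.00267). Of all genes, 9.99% were called higher and 10.7% lay higher without overlap. Of 7 myofibroblast markers 1 was higher, Timp1, and of 5 tested portal fibroblast markers 0 were called. Stellate markers were higher for 3 of 9 genes (sums of 364 to 422 CPM in EtOH and 311 to 335 CPM in Control 28D), recruited macrophage markers higher for 2 of 6 (54.1 to 79.1 CPM in EtOH and 49.7 to 76.1 CPM in Control 28D) and hepatocyte markers lower for 4 of 6 (47305 to 59041 CPM in EtOH and 55456 to 95292 CPM in Control 28D), and their part was not tested. Fbn1 had 13.6, 16.8, 17.7 and 19.1 CPM in EtOH livers, against 9.25 to 14.9 CPM in Control 28D livers, an overlap made by 1 EtOH liver, replicate 21 (0.43 ± 0.16, adjusted p = 0.0625). It passed without that liver (0.52, adjusted p = 0.0453), without Control 28D replicate 12 (0.50, adjusted p = 0.0389) and with only these groups fitted (0.42, adjusted p = 0.0431), and over 17 alternatives adjusted p ran from 0.0389 to 0.175.

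After DDC, ethanol added to HFD went with a higher Fbn1. It had 20.5 to 42.9 CPM (median 28.9) in DDC+EtOH livers, against 15.1 to 24.6 CPM (median 21.8) in DDC+HFD livers, with overlap (0.46 ± 0.14, adjusted p = 0.0183). That was 1 of the 10 genes, a share near the 8.53% of all genes called with higher values. All 10 genes overlapped, while 2.17% of all genes lay higher and 1.3% lower without overlap. The call was lost with only these groups in the fit (adjusted p = 0.142), without DDC+EtOH replicate 40, the liver with the highest value (0.32, adjusted p = 0.0953), and without DDC+HFD replicate 37, the one with the lowest (0.37, adjusted p = 0.0686); over 20 alternatives it ran from 0.00534 to 0.142. Lum (0.39 ± 0.18, adjusted p = 0.135), Efemp1 (0.33 ± 0.15, adjusted p = 0.124) and Thbs1 (0.58 ± 0.26, adjusted p = 0.13) did not pass. All 3 passed without DDC+EtOH replicate 38, which held 6950 CPM of pancreas transcripts, at 0.51 (adjusted p = 0.0412), 0.45 (0.0268) and 0.75 (0.0352). Lum also passed without DDC+HFD replicate 32 (0.52, adjusted p = 0.0445). Without all 7 pancreas-bearing libraries, a setting chosen after seeing the data, Fbn1, Efemp1 (0.54, adjusted p = 0.0383) and Thbs1 (1.11, adjusted p = 0.02) were called. The alternatives spanned adjusted p from 0.0412 to 0.303 for Lum, from 0.0268 to 0.327 for Efemp1 and from 0.02 to 0.54 for Thbs1. Stellate markers were higher for 4 of 9 genes (sums of 379 to 472 CPM in DDC+EtOH and 368 to 453 CPM in DDC+HFD) and myofibroblast markers for 2 of 7 (58.4 to 103 CPM in DDC+EtOH and 51.5 to 77.1 CPM in DDC+HFD). Of 5 tested portal fibroblast markers 0 were called (sums of 18.0 to 41.3 CPM in DDC+EtOH and 17.1 to 33.8 CPM in DDC+HFD). Of 6 bile duct markers 0 were called. Recruited macrophage markers were higher for 3 of 6 (114 to 319.6 CPM in DDC+EtOH and 147 to 253 CPM in DDC+HFD). Hepatocyte markers were lower for 2 of 6 (42548 to 62970 CPM in DDC+EtOH and 41859 to 82013 CPM in DDC+HFD). Their part in the Fbn1 value was not tested.

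Against DDC+Cont, DDC+EtOH livers had higher Fbn1 (0.60 ± 0.15, adjusted p = 0.00203) and Thbs1 (1.45 ± 0.29, adjusted p = 0.000273), 2 of the 10 genes against 12.4% of all. All 10 genes overlapped, while 4.76% of all genes lay higher and 4.6% lower without overlap. Thbs1 had 6.29 to 30.4 CPM (median 12.7) in DDC+EtOH livers, against 4.48, 4.88, 5.99, 6.27 and 6.46 CPM in DDC+Cont livers. Only DDC+EtOH replicate 38, at 6.29 CPM, lay within the DDC+Cont range, and replicates 39 and 40 stood highest at 30.4 and 22.2 CPM. In 3 shared lanes the Thbs1 log2 ratio was 2.30, 1.79 and, in the lane that held replicate 38, −0.04. Lum had 0.46 ± 0.19 (adjusted p = 0.0728), and passed without DDC+Cont replicate 25 (0.61, adjusted p = 0.0239), without DDC+EtOH replicate 38 (0.58, 0.0182) or 43 (0.52, 0.049), and with lane as a term (0.57, 0.0211), within a range of 0.0182 to 0.256 over 19 alternatives. Efemp1 had 0.30 ± 0.16 (adjusted p = 0.16) and passed without replicate 38 (0.42, 0.0355), within a range of 0.0355 to 0.414. Without the pancreas-bearing libraries Lum (0.65, adjusted p = 0.0238), Efemp1 (0.42, adjusted p = 0.047) and Dcn (0.41, adjusted p = 0.0225) were called too, Dcn within a range of 0.0225 to 0.554. The stellate sum was 379 to 472 CPM in DDC+EtOH and 345 to 396 CPM in DDC+Cont, with 6 of 9 genes called higher, and the myofibroblast sum 58.4 to 103 CPM in DDC+EtOH and 42.6 to 65.5 CPM in DDC+Cont, with 3 of 7 called higher. Of 5 tested portal fibroblast markers 0 were called (sums of 18.0 to 41.3 CPM in DDC+EtOH and 18.5 to 36.0 CPM in DDC+Cont). Of 6 bile duct markers 1 was called, Sox9, which was lower. Recruited macrophage markers were higher for 3 of 6 (114 to 319.6 CPM in DDC+EtOH and 91.9 to 169 CPM in DDC+Cont). Hepatocyte markers were lower for 3 of 6 (42548 to 62970 CPM in DDC+EtOH and 44997 to 85316 CPM in DDC+Cont). Their part was not tested.

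HFD after DDC, against BD after DDC, called 0 of the 10 genes in edgeR, against 3.40% of all genes in either direction. Thbs1 alone had an unadjusted p under 0.05, as had 18.5% of all genes. All 10 genes overlapped, while 1.16% of all genes lay higher and 1.53% lower without overlap. Thbs1 had 6.02 to 14.6 CPM (median 10.4) in DDC+HFD livers, against 4.48 to 6.46 CPM (median 5.99) in DDC+Cont livers, and 1 DDC+HFD liver, replicate 37, lay within the DDC+Cont range (0.87 ± 0.29, adjusted p = 0.0841). DESeq2 called it (0.88, adjusted p = 0.0417), and over 19 alternatives adjusted p ran from 0.0417 to 0.268.

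**Figure D3:**
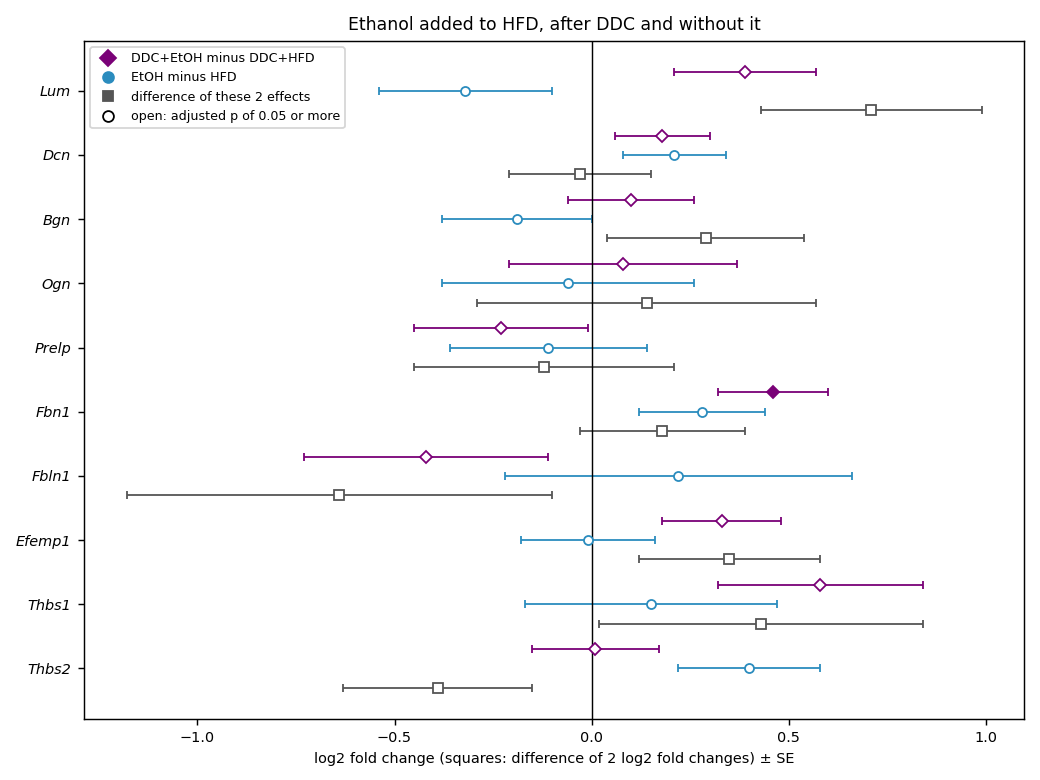
Log2 fold change ± SE of each gene for ethanol added to HFD, after DDC (diamonds) and without DDC (circles), and the difference of these effects (squares, ± SE); filled symbols have an adjusted p under 0.05. Only Fbn1 after DDC is filled (0.46), and the widest difference is that of Lum (0.71 ± 0.28).

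Whether earlier DDC changed the ethanol effect was tested as the difference between those effects. It was called for 0 of the 10 genes in edgeR and in DESeq2, and for 0.0% of all genes in edgeR. Lum alone had an unadjusted p under 0.05 (0.71 ± 0.28, adjusted p = 0.86), as had 5.15% of all genes, with 0.39 after DDC and −0.32 without it. For HFD with ethanol against BD, the same difference was called for 0 of the 10 genes by both tools and 0.00697% of all genes, with 4 of the 10 and 7.05% of all genes at an unadjusted p under 0.05. Those were Thbs1 (0.99 ± 0.44), Lum (0.62 ± 0.29) and Bgn (0.53 ± 0.26), larger after DDC, and Thbs2 (−0.60 ± 0.25), smaller after it.

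Within groups, certain genes peaked in the same livers. Bgn and Prelp had their highest liver in common in 6 of 8 groups and their lowest in common in 6 of 8. In DDC 0D both were highest in replicate 6 (150.3 CPM of Bgn, 56.8 CPM of Prelp), in DDC+EtOH in replicate 41 (105 and 58.2 CPM), in DDC+HFD in replicate 36 (110.2 and 58.6 CPM) and in Control 28D in replicate 13 (68.1 and 49.0 CPM). The same held for DDC+Cont replicate 28 (75.5 and 47.3 CPM) and HFD replicate 19 (53.1 and 29.6 CPM). All of these libraries were in sequencing lane 4 except HFD replicate 19, in lane 2. Other libraries in lane 4, such as Control 28D replicate 11 and DDC+HFD replicate 37, were highest for neither gene. The share of reads not aligned was the highest of the group in replicates 6, 13, 28 and 41 (7.02%, 9.07%, 9.08% and 9.72%), but not in 19 and 36. Lum and Dcn shared their highest liver in 7 of 8 groups and their lowest in 3, and Dcn and Efemp1 shared the highest in 6. Bgn and Dcn, though both small proteoglycans of the same class, shared it in only 1 group. DDC 0D replicate 8 was highest of its group for 8 of the 10 genes and replicate 5 lowest for 7, EtOH replicate 20 was highest for 7, DDC+EtOH replicate 40 highest for 5 and replicate 38 lowest for 6. These counts describe the libraries, which share depth and scaling, and carry no test. The part of lane and of reads not aligned in the shared peaks was not tested.

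**Figure D4:**
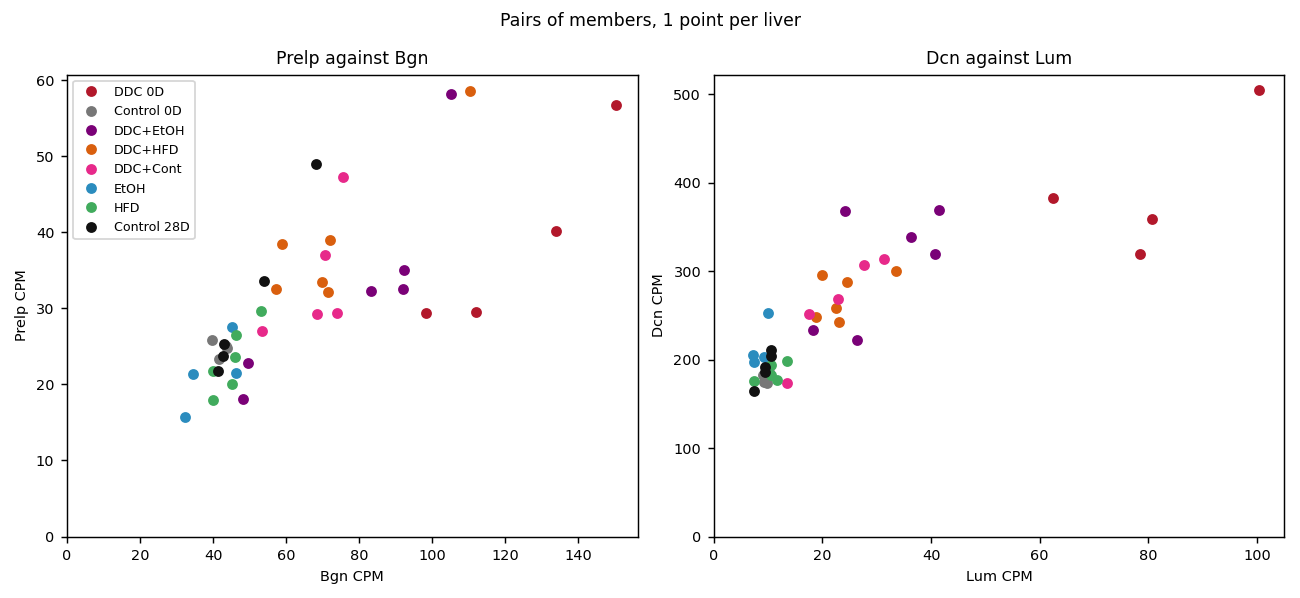
Prelp against Bgn (left) and Dcn against Lum (right), in CPM on linear axes from 0, with 1 point per liver coloured by group. Livers high in Bgn and Prelp occur in DDC 0D, DDC+EtOH, DDC+HFD, DDC+Cont and Control 28D alike, while Lum separates DDC 0D (62.4 to 100.4 CPM) from every other liver (at most 41.4 CPM). In each of these groups the liver highest in both Bgn and Prelp was in sequencing lane 4, and the part of lane was not tested.

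For every gene but Ogn the DDC-fed groups had higher means than the other groups, whose own order differed by gene. EtOH had the lowest mean for Lum but stood above Control 0D and Control 28D for Fbn1. By mean level DDC 0D came first for 9 of the 10, and for Prelp it stood beside DDC+HFD (39.0 ± 10.0 CPM in DDC+HFD and 39.0 ± 12.9 CPM in DDC 0D). For Lum the means ran 80.5 in DDC 0D, 31.2 in DDC+EtOH, 23.7 in DDC+HFD, 22.6 in DDC+Cont, 10.5 in HFD, 9.53 in Control 0D, 9.42 in Control 28D and 8.46 CPM in EtOH. Of the 7 pairs of neighbours in that order, 6 overlapped, the exception being DDC 0D over DDC+EtOH. The same held for Fbn1, with 85.5 ± 9.66 CPM in DDC 0D and 29.3 ± 8.28 CPM in DDC+EtOH. For the other 8 genes all 7 neighbouring pairs overlapped. Ogn means covered a narrow span, with 3.38 ± 1.38 CPM in DDC 0D the highest and 2.69 ± 0.709 CPM in Control 28D the lowest.

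Of 13 other small leucine-rich proteoglycans listed, 7 could be tested. In DDC 0D against Control 0D, 3 rose and 1 fell, with a median log2 fold change of 0.61, while 27.5% of all genes were called higher and 52.0% in either direction. Fmod, fibromodulin, a collagen-binding proteoglycan that neighbours Prelp on chromosome 1, had 2.55 ± 0.446 CPM in DDC 0D and 0.623 ± 0.268 CPM in Control 0D (1.98 ± 0.43, adjusted p = 0.00021). Ecm2 (0.61 ± 0.25, adjusted p = 0.041), 3 genes upstream of Ogn on chromosome 13, and Tsku (0.96 ± 0.39, adjusted p = 0.0406) rose as well, and Chad, chondroadherin, fell by 0.81 ± 0.24 (adjusted p = 0.00449). In DDC+Cont against Control 28D none of the 7 was called, their median being −0.43. Ogn sits in a row with Ecm2, Aspn and Omd, and of these Aspn (0.78 ± 0.42, adjusted p = 0.117) and Omd (0.51 ± 0.33, adjusted p = 0.204) did not pass in DDC 0D. Beyond Lum on chromosome 10 lie Kera, with 0 reads in all 40 libraries, and Epyc, with 10 reads in 4 libraries, both known from cornea or cartilage.

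EtOH against HFD called 2 of these 7 relatives, Omd and Tsku, and DDC+EtOH against DDC+HFD called the same pair and Fmod. In either direction, 13.5% of all tested genes were called in the first comparison and 2375 of 14355 in the other. Omd, osteomodulin, the direct neighbour of Ogn, fell by 1.37 ± 0.35 in EtOH against HFD (adjusted p = 0.00668) and by 1.35 ± 0.32 in DDC+EtOH against DDC+HFD (adjusted p = 0.00289). Its means were 0.93 ± 0.438 CPM in EtOH and 2.34 ± 0.866 CPM in HFD, and 0.711 ± 0.345 CPM in DDC+EtOH and 1.83 ± 0.776 CPM in DDC+HFD. Tsku, tsukushi, a secreted regulator of signalling made by hepatocytes, went the other way, with 212 ± 72.5 CPM in EtOH and 99.3 ± 32.6 CPM in HFD (1.09 ± 0.35, adjusted p = 0.0334). After DDC it had 221 ± 89.4 CPM in DDC+EtOH and 52.5 ± 18.7 CPM in DDC+HFD (2.08 ± 0.33, adjusted p = 3.19e-05). Fmod had 1.82 ± 0.813 CPM in DDC+EtOH and 0.905 ± 0.498 CPM in DDC+HFD (1.00 ± 0.36, adjusted p = 0.0482), and was also called in DDC+EtOH against EtOH (1.73 ± 0.43, adjusted p = 0.0115). Ecm2 fell by 0.63 ± 0.22 in DDC+EtOH against DDC+Cont (adjusted p = 0.0325). Ogn in DDC-free and DDC-fed livers under ethanol against HFD gave −0.06 ± 0.32 and 0.08 ± 0.29.

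Other microfibril and elastic fibre genes moved with Fbn1. Of 18 tested, 17 rose in DDC 0D against Control 0D and 0 fell, with a median of 1.91. Of all tested genes, 27.5% were called higher in DDC 0D against Control 0D and 1.23% in DDC+Cont against Control 28D. The smallest p belonged to Fbn2, the fibrillin of developing tissue, at 19.1 ± 2.78 CPM in DDC 0D and 0.134 ± 0.165 CPM in Control 0D (6.96 ± 0.52, adjusted p = 3.25e-13), on 1109 and 10 reads in all. Next came the latent TGF-beta binding proteins Ltbp2 (4.42 ± 0.36, adjusted p = 1.28e-12) and Ltbp1 (1.99 ± 0.20, adjusted p = 1.03e-10), and the fibulin Efemp2 (1.85 ± 0.18, adjusted p = 1.23e-10). In DDC+Cont against Control 28D, 3 of the 18 were higher: Fbn2 (3.83 ± 0.65, adjusted p = 0.000486, at 1.17 ± 0.405 CPM in DDC+Cont and 0.0842 ± 0.115 CPM in Control 28D), Adamtsl2 (1.25 ± 0.28, adjusted p = 0.0121) and Adamts10 (0.48 ± 0.13, adjusted p = 0.0405), of which Adamtsl2 and Adamts10 are known to bind fibrillin. Of the collagens that the proteoglycans bind, 10 of 10 rose in DDC 0D (median 2.54), with the smallest adjusted p for Col5a2 (3.67 ± 0.26, adjusted p = 1.41e-13), and 4 of 10 were higher in DDC+Cont (median 0.88). Among those 4 was Col6a3, a chain of the beaded collagen that Dcn and Bgn bind, at 55.5 ± 11.4 CPM in DDC+Cont and 21.6 ± 1.10 CPM in Control 28D (1.36 ± 0.23, adjusted p = 0.00047). Thbs3, the one other thrombospondin tested, rose in DDC 0D (1.37 ± 0.35, adjusted p = 0.00135) and had 0.56 ± 0.34 (adjusted p = 0.575) in DDC+Cont.

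The genes whose 8 group means ran most like those of each member were sought among 12683 other named genes with a mean of at least 1 CPM in some group, by the root mean square difference of centred log2 values. Nearest to Lum were Bicc1 (0.138) and Sh3pxd2b (0.147), to Dcn Pfkp (0.0718) and Pmp22 (0.0771), to Bgn Glis2 (0.0704) and Cnksr1 (0.0905), and to Prelp Hdac7 (0.0921) and Dpysl2 (0.0965). For Ogn they were Wdr34 (0.0543) and Ruvbl1 (0.0568), both near-flat across groups. For Fbn1 they were Mgp (0.0944) and Kntc1 (0.106), for Fbln1 Mmrn1 (0.122) and Itgb8 (0.123), for Efemp1 Cklf (0.0636) and Ctbp2 (0.0705), for Thbs1 Golm1 (0.162) and Adam8 (0.172), and for Thbs2 Pcdh9 (0.129) and Bicd1 (0.15). Among the 10 themselves the closest pair was Dcn and Efemp1 (0.136), and Lum stood farthest from Ogn (0.993), as did Thbs1 (0.993). These distances cover 8 groups only and were not tested.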

How the data were processed

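Per the labels' protocols, libraries were made from total liver RNA with a kit for messenger RNA. The deposited values are raw read counts per gene made by the authors, 1 file per library, and builds and tools listed in the submitters' processing notes are mm10, GSNAP and DESeq2 (1.12.3). Neither counting program nor strandedness is stated there. Closing tallies of reads not counted on a gene (48.2% to 59.0% of all reads) were left out. They pool reads on no gene, ambiguous reads, reads aligned to several places and reads not aligned.

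Groups came from the labels. All 40 libraries entered 1 fit in edgeR 4.0.16 (R 4.3.3) with 1 coefficient per group, TMM factors, the default low-count filter by group and the two-sided robust quasi-likelihood F test. P-values were adjusted by Benjamini-Hochberg over 14355 genes, and genes below 0.05 were called. A log2 fold change stands with its SE, CPM with its SD. CPM has no pseudocount, and likeness used log2 of CPM plus 0.5. Exon lengths came from GENCODE vM21. Lane numbers, 6 in all, come from the deposited names. The scripts were tested on simulated data. Alternatives were RLE factors, no filter, a stricter filter (1 CPM in 4 libraries and a mean count of 10), non-robust dispersion, lane as a term, only the groups compared, DESeq2 1.42.0, each library left out and, added later, fits without 7 pancreas-bearing libraries.

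The members and gene lists were chosen with earlier results of these data known. All 10 members are named; from each list, the genes with the smallest adjusted p, up to 4, and those called against most of it. Counting error and animal differences are both in the spread; no interval for single libraries is given.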

Additional observations from a re-analysis of the deposited data

Results flagged for a closer look

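A lone extreme value was flagged in 3 of the 80 combinations of gene and group examined. Chance alone gives about 1 in 20, so the count is no more than chance brings. Dcn was highest in EtOH replicate 20, at 253 CPM, while the other EtOH livers had 197 to 205 CPM. Bgn and Prelp were both highest in DDC+HFD replicate 36, at 110.2 CPM and 58.6 CPM, while the next livers of that group had 71.9 and 39.0 CPM. That library held 1023 CPM of pancreas transcripts, was in lane 4 and had the lowest depth of its group, 7249760 reads on genes. DDC+HFD replicates 30 and 33 held more pancreas transcripts, 5087 and 1910 CPM, with 69.9 and 57.1 CPM of Bgn. The part of pancreas transcripts, lane and depth in the values was not tested. Without replicate 36 the Prelp difference between DDC+HFD and HFD was 0.60 with adjusted p = 0.0717, outside a call, and over 20 alternatives adjusted p ran from 0.00836 to 0.0851.

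The DDC effect differed between the later and the earlier stage for 7 genes, by the test of the difference in edgeR, with log2 values of −3.03 for Thbs1, −2.09 for Fbn1, −1.81 for Lum, −1.1 for Bgn, −0.92 for Thbs2, −0.67 for Dcn and −0.64 for Efemp1. Of all tested genes, 17.6% were called with a lower value in this test. The Efemp1 difference was called in 16 of 26 alternatives, with adjusted p from 0.0158 to 0.116.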

How the results depend on the processing

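Of 3019 values for single genes recomputed under alternatives, 0 called values changed sign. Values called in neither fit changed sign in 80 cases, between −0.21 and 0.27, of which 36 were of Ogn. Leaving out 1 liver lost 39 calls and added 12 among 1820 values, and the other alternatives lost 15 and added 9 among 1199. Of the 10 genes, DDC 0D against Control 0D called 8 to 9 over all alternatives, DDC+Cont against Control 28D 2 to 4, the difference between stages 6 to 7 and DDC+HFD against HFD 7 to 8. Counts that moved by more than 1.5 times under some alternative were as follows. EtOH against Control 28D gave 2 with only the groups compared and 1 to 2 with 1 liver left out. DDC+EtOH against DDC+HFD gave 0 with only the groups compared, 3 without the pancreas-bearing libraries and 0 to 4 with 1 liver left out. DDC+EtOH against EtOH gave 1 with only the groups compared and 5 to 9 with 1 liver left out. DDC+EtOH against DDC+Cont gave 5 without the pancreas-bearing libraries and 2 to 4 with 1 liver left out, and DDC+HFD against DDC+Cont gave 1 by DESeq2. A fit of only the groups compared holds fewer libraries and estimates the spread from those groups alone. Why the counts moved was not tested. Counts over all genes moved by more than 1.5 times with only the groups compared (688 against 353 for Control 28D and Control 0D, 105 against 54 for HFD and Control 28D, 101 against 488 for DDC+HFD and DDC+Cont, 804 against 2375 for DDC+EtOH and DDC+HFD, 2000 against 3388 for DDC+EtOH and DDC+Cont, 243 against 960 for DDC+EtOH and EtOH). Without the pancreas-bearing libraries, chosen after seeing the data, they were 535 for Control 28D and Control 0D, 1275 for DDC+EtOH and DDC+HFD and 1468 for DDC+EtOH and EtOH. DESeq2 gave 596 for Control 28D and Control 0D and 130 for HFD and Control 28D, and lane as a term gave 299 for DDC+HFD and DDC+Cont. With 1 liver left out the counts spanned 119 to 339 for Control 28D and Control 0D, 25 to 73 for HFD and Control 28D, 167 to 715 for DDC+HFD and DDC+Cont, 545 to 1477 for DDC+EtOH and EtOH, 129 to 247 against 218 for DDC+Cont and Control 28D, and 1213 to 2174 against 1931 for DDC+HFD and HFD. The difference of effects of HFD with ethanol between DDC-fed and BD-fed livers called 1 gene, 0 with lane as a term or with only the groups compared, 2 without the pancreas-bearing libraries, 11 by DESeq2 and 0 to 3 with 1 liver left out, and the ethanol difference 0 against 3 by DESeq2. No paired analysis was possible because the label numbers differ for every library. Depth limits Fbln1 and Ogn, counted on under 100 reads a library, most.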

Other observations

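Receptors and partners of these matrix proteins split in DDC 0D against Control 0D: 12 of 17 rose and 4 fell. Itga2, a collagen-binding integrin chain, had 7.26 ± 0.633 CPM in DDC 0D and 0.502 ± 0.198 CPM in Control 0D (log2 fold change 3.86 ± 0.31, adjusted p = 1.3e-12), and Itgav, a chain of the integrins that free TGF-beta, had 126 ± 13.6 CPM in DDC 0D and 58.6 ± 3.55 CPM in Control 0D (1.10 ± 0.10, adjusted p = 9.97e-12). The 4 that fell were Egfr (−2.12 ± 0.37), Sdc4 (−1.06 ± 0.16), Met (−0.50 ± 0.11) and Lrp1 (−0.48 ± 0.18). Of all tested genes, 27.5% were called higher in this comparison and 52.0% in either direction. In DDC+Cont against Control 28D the list gave 1 call, Cd36, a receptor of thrombospondin and fatty acids (0.71 ± 0.15, adjusted p = 0.00676). Cd36 also had 351 ± 25.0 CPM in EtOH and 154 ± 30.7 CPM in HFD (1.19 ± 0.15, adjusted p = 5.13e-07).

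Enzymes that build the sugar chains of proteoglycans were mixed, with 11 of 21 higher and 3 lower in DDC 0D. Over all tested genes the shares were 27.5% higher and 52.0% in either direction. The chondroitin sulfotransferase Chst11 had 4.92 ± 1.17 CPM in DDC 0D and 0.182 ± 0.0412 CPM in Control 0D (4.74 ± 0.42, adjusted p = 1.15e-11), and the chain-starting xylosyltransferase Xylt1 rose (3.18 ± 0.56, adjusted p = 1.01e-05). The 3 that fell were B3gat3 (−1.01 ± 0.12), Xylt2 (−0.57 ± 0.12) and B4galt7 (−0.29 ± 0.12). In DDC+Cont against Control 28D, edgeR called 0 of the 21. Of 12 proteases that cut these proteins, 11 rose in DDC 0D, with the smallest adjusted p for Mmp2 (3.09 ± 0.26, adjusted p = 2.01e-12), and Bmp1, which trims proteoglycan and collagen precursors, fell by 0.92 ± 0.089 (adjusted p = 5.54e-11). In DDC+Cont, 3 of the 12 were higher, Mmp2 (1.14 ± 0.24), Adamts5 (1.00 ± 0.24) and Htra1 (1.2 ± 0.31), against 1.23% of all tested genes.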
